A study of Quercus robur with 165 samples.

Results

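Lateral roots of pedunculate oak (*Quercus robur*) were compared with the elongation zone of the taproot in 7 matched pairs of groups. Every lateral root group of Dataset 2 in these pairs was set against the elongation zone group with the same code for length, vitality and cultivation. The comparison used 42 of the 165 libraries of the series, 21 from lateral roots and 21 from elongation zones, with 3 libraries in each of the 14 groups. The 7 classes were long normal roots grown in containers, in rhizotrons or in containers and then transplanted to rhizotrons, long dying roots from containers, medium normal roots from containers or rhizotrons, and medium, thick and dying roots from transplanted seedlings. They are called the long container, long rhizotron, long transplanted, long dying container, medium container, medium rhizotron and medium thick dying transplanted pair below. A rhizotron is a flat chamber with clear walls in which a taproot can grow on, whereas in a container the tip is air-pruned at the bottom. The transplanted seedlings were moved in the spring of the year after sowing. Per the paper, the other seedlings of Dataset 2 were sown a year later than these, from acorns of the same lot that were older by then. Transplanting therefore cannot be told apart from plant age, sowing year or acorn age.

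The taproot is the primary root of the seedling. Behind its tip, cells leave the meristem and expand in the elongation zone. Lateral roots start from inner tissue of an older root, and each builds a tip of its own, so that a whole lateral root holds several zones. Per the study's methods, both zones were separated at harvest in lateral roots as in taproots. The labels, however, name no zone for the lateral roots, so that which zones their libraries hold is not known. The classes of length, thickness and vitality were defined on taproots. Root type and developmental zone therefore cannot be told apart in this comparison. The libraries are from bulk tissue, in which fewer cells of a type and less RNA per cell give the same reading.

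In the sources used here, 11 of the gene identifiers are paired with names, in the primer table for RT-qPCR. They cover auxin transport (*PIN2*, an auxin efflux carrier), gibberellin synthesis (*G3OX*, gibberellin 3-beta-dioxygenase), the last step of ethylene synthesis (*ACO1* and *ACO5*, aminocyclopropane carboxylate oxidases), detoxification (*GST*, a glutathione S-transferase), the cell wall and apoplast (*GERL1*, a germin-like protein), sphingolipid turnover (*CERD*, a neutral ceramidase), transcription (*WRKY*), a desiccation-related protein (*PCC13*) and the reference genes *UBQ* and *EF*. The primers of 3 of these genes are shown because they fix which transcript was meant by the name. Of the 11 genes, *GERL1* and *PIN2* differed most between the root parts. *PIN2* and *GST* passed the test over the 7 pairs and also passed in the opposite direction within 1 pair.

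GERL1 forward: ccaaccctcccattaatcct
GERL1 reverse: ctcttcaaccacatttttgtcg
PIN2 forward: tcttcacaccagaccagtgc
PIN2 reverse: ggaaggaaagtaatggaactgc
GST forward: tgaatctagggcaattacagca
GST reverse: gagatcagttccagtttccttga

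The libraries held 25222505 to 33101981 expected counts in lateral roots (median 31434552) and 26653702 to 33025287 in elongation zones (median 31550106). The expected count is the number of read pairs assigned to a gene. Between 22470 and 23834 genes had at least 10 counts in a lateral root library, and between 22562 and 23626 in an elongation zone library. The 3 most abundant genes took 2.04% to 8.89% of the counts in lateral roots (median 2.56%) and 3.01% to 3.95% in elongation zones.

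Many libraries of a group were nearly the same. The coefficient of variation beyond counting noise was under 0.05 in 28 of the 42 pairs of libraries within a group (range 0.0153 to 0.273, median 0.0342), and in none of the pairs from different groups. Between a lateral root library and an elongation zone library of the same class it was at least 0.258 (median 0.316). With the near-identical libraries of a group merged, the 42 libraries came to 22 units, 10 of lateral roots and 12 of elongation zones, and 8 of the 14 groups came to 1 unit. The labels number the libraries as replicates, but p-values over 42 libraries within and between pairs may then measure technical spread. In the fit over the 7 pairs the spread also holds the variation among pairs, and near-identical libraries of a group count as independent. The differences over the 7 pairs are therefore also given with these libraries merged and with the 3 libraries of every group summed. Differences within and between pairs are given with merged libraries only, and the distances with neither. In 7 libraries the nearest library was of another group: replicate 3 of the long transplanted and replicate 1 of the medium container lateral roots, replicate 1 of the long transplanted and of the long rhizotron elongation zones, and all 3 of the medium container elongation zones. In all 42 the nearest library was of the same root part.

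The root parts separated on the first principal component of log2 CPM (counts scaled to library size), which held 25.3% of the variance. Lateral roots lay between 42.5 and 141.8 on it and elongation zones between -101.5 and -44.2. On the second component (18.6%), the 3 lateral root libraries of the medium thick dying transplanted class lay far below all others, the lowest at -183.5.

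**Figure D1:**
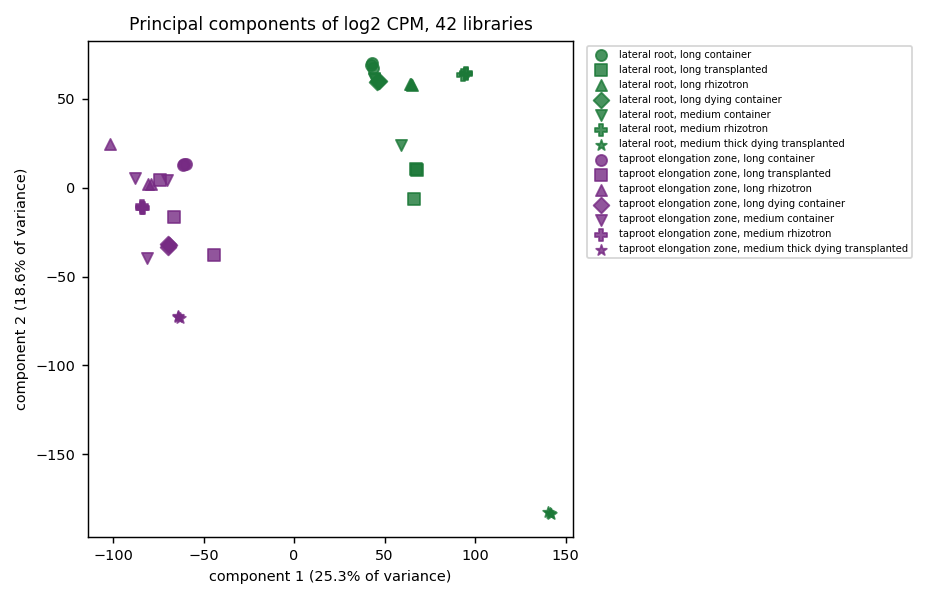
Principal components of log2 CPM over the 42 libraries, with component 1 on the x axis and component 2 on the y axis; green symbols are lateral roots, purple symbols taproot elongation zones, and the shape gives the class. Component 1 separates the root parts in all 42 libraries, and the lateral roots of the medium thick dying transplanted class lie apart at the lower right.

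Across the 7 pairs, 14841 of 27388 genes tested differed between lateral roots and elongation zones (54.2%; edgeR's quasi-likelihood test with the pair as covariate, Benjamini-Hochberg adjusted p under 0.05). Of these, 7236 genes were higher in lateral roots (26.4%) and 7605 were lower (27.8%). With near-identical libraries merged, 8221 genes differed (30%), 4213 higher (15.4%) and 4008 lower (14.6%) in lateral roots. With each group summed to 1 unit, 7 against 7, 5700 genes differed (20.8%), 2707 higher (9.88%) and 2993 lower (10.9%). A set of 5520 genes differed in all 3 fits, 2636 higher and 2884 lower in lateral roots. The split by direction depended on the scaling: without TMM factors 9634 genes were higher and 5832 lower in lateral roots, and limma on log2(TPM + 1) gave 10868 and 5271, so that 62.3% and 67.3% of the differing genes were higher in place of 48.8%.

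Most differences were small. The median size among the 14841 genes was 0.56 on the log2 scale, and 2664 genes differed by more than 2-fold when that size was the null of the test. Among genes with an adjusted p under 0.05, 100 were higher in lateral roots by at least 4 on the log2 scale and 142 were lower by as much. The genes that differed in all 3 fits by at least 2 on the log2 scale numbered 532 higher and 842 lower in lateral roots. The 842 lower genes summed to 5765 to 14080 TPM in lateral root libraries, against 57360 to 121100 TPM in elongation zone libraries. The 532 higher genes summed to 11470 to 15980 TPM in lateral root libraries, against 1148 to 2869 TPM in elongation zone libraries. TPM is a share of all transcripts that is corrected for gene length, and these sums describe genes that were chosen by the same contrast, so that no test goes with them.

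**Figure D2:**
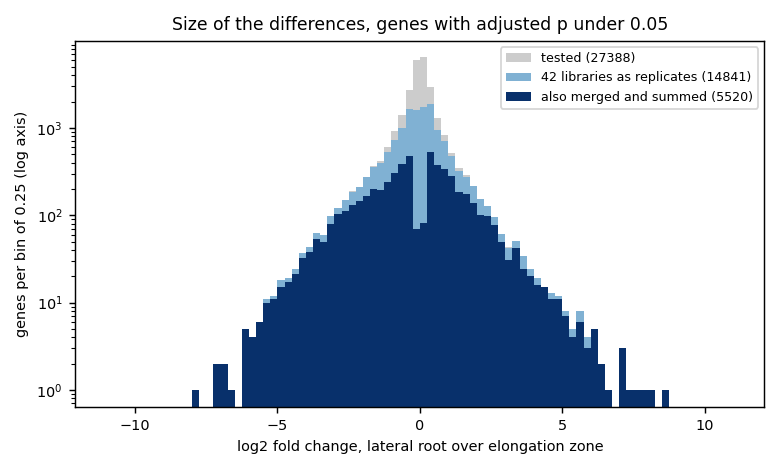
Histogram of the fitted log2 fold change of lateral root over elongation zone (x axis) against the number of genes per bin of 0.25 (log y axis) for the 27388 genes tested, the 14841 with an adjusted p under 0.05 over 42 libraries, and the 5520 that also passed with libraries merged and with groups summed. Of the genes at 4 or beyond, 89 of 100 higher and 127 of 142 lower in lateral roots passed in all 3 fits, whereas those near 0 passed mostly over 42 libraries.

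The root parts shared most of their genes. At least 10 counts were found in all 42 libraries for 18426 genes, in all 21 lateral root libraries for 19233 and in all 21 elongation zone libraries for 19531. Overlap was judged on log2 CPM for the shares given here, and on TPM for the named genes below. The 3 lateral root libraries lay above the 3 elongation zone libraries in every pair for 862 genes (3.15%) and below them in every pair for 939 (3.43%). All 21 lateral root libraries lay above all 21 elongation zone libraries for 343 genes (1.25%) and below them for 365 (1.33%).

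Of the 9 RT-qPCR genes, 4 were higher in lateral roots (*PIN2*, *G3OX*, *ACO5* and *GST*), 3 were lower (*GERL1*, *WRKY* and *CERD*) and *ACO1* and *PCC13* did not pass the test over the 7 pairs. All 7 kept an adjusted p under 0.05 with near-identical libraries merged, and all but *GST* with groups summed. The background for these counts is the share of all genes that passed, 54.2%, 30% and 20.8% in the 3 fits.

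The auxin efflux carrier *PIN2*, which in *Arabidopsis* moves auxin shootward from the root tip, had 2.35 to 37.1 TPM in lateral roots (median 21.3) and 0 to 9.85 TPM in elongation zones (median 1.52). In the medium container pair its lateral root libraries had 8.39, 34.8 and 37.1 TPM, against 0.12, 0.04 and 0.23 TPM in the elongation zone. Lateral roots lay above the elongation zone in 6 pairs, without overlap. In the medium thick dying transplanted pair the order was turned, with 2.35, 3.31 and 3.36 TPM in lateral roots and 8.91, 9.85 and 8.02 TPM in the elongation zone. Over the 7 pairs *PIN2* was higher in lateral roots by 3.63 on the log2 scale (SE 0.50, edgeR adjusted p = 1.1e-07; 7.8e-04 merged, 0.031 summed). Whether its difference varied among the pairs gave an adjusted p of 2.0e-09 over 42 libraries and 0.47 after merging in edgeR. The meristematic zone of the taproot, in the same 7 classes, had 6.08 to 67.7 TPM (median 34.5).

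*G3OX*, whose enzyme makes bioactive gibberellins, was near the detection limit, with 3 to 37 counts per lateral root library and 0 to 15 per elongation zone library. Its level was 0.09 to 1.16 TPM in lateral roots (median 0.70) and 0 to 0.46 TPM in elongation zones (median 0.13). The lateral roots lay above without overlap in 5 pairs, and the libraries overlapped in the long transplanted and medium container pairs. The fitted difference was 2.19 on the log2 scale (SE 0.26, edgeR adjusted p = 6.2e-09; 8.7e-04 merged, 0.011 summed). Over the alternatives it was 0.57 to 2.43, the lowest on log2(TPM + 1), a scale that understates the change of a gene this low. In the meristematic zone *G3OX* had 0.24 to 12.0 TPM.

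Of the *ACO* genes of ethylene synthesis, *ACO5* had 1.58 to 149.3 TPM in lateral roots (median 80.1) and 1.36 to 62.1 TPM in elongation zones (median 19.6). In the long container pair its libraries had 145.7, 146.4 and 149.3 TPM in lateral roots, against 27.6, 28.0 and 26.0 TPM in the elongation zone. By TPM, lateral roots lay above the elongation zone in 5 pairs, and the libraries overlapped in both transplanted pairs. By log2 CPM, lateral roots lay above without overlap in 4 pairs and below in 1. In the medium thick dying transplanted pair *ACO5* was low in both parts, at 2.12, 1.95 and 1.58 TPM in lateral roots and 1.92, 2.22 and 2.03 TPM in the elongation zone. Over the 7 pairs it was higher in lateral roots by 1.90 on the log2 scale (SE 0.34, edgeR adjusted p = 1.4e-05; 0.040 merged, 0.049 summed).

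The other gene, *ACO1*, had 64.5 to 252.5 TPM in lateral roots (median 113.7) and 54.4 to 215.2 TPM in elongation zones (median 83.4). Its difference over the 7 pairs was 0.31 on the log2 scale (SE 0.16) and did not pass the test (edgeR adjusted p = 0.089; 0.12 merged, 0.50 summed). In the medium thick dying transplanted pair lateral roots had 79.0, 79.8 and 82.0 TPM, against 215.2, 213.4 and 211.3 TPM in the elongation zone. In the medium rhizotron pair they had 181.5, 182.5 and 187.9 TPM, against 87.0, 85.5 and 83.4 TPM. Without the thick dying pair the difference was 0.59 (adjusted p = 3.8e-05), and it also passed without TMM factors (0.41, adjusted p = 0.025), on log2(TPM + 1) (0.33, adjusted p = 0.049) and in the fit of all 30 groups of Dataset 2 (0.33, adjusted p = 5.9e-04). Without the medium container pair it was 0.21 (edgeR adjusted p = 0.32). Without that pair and the other libraries that were nearest to another group it was 0.077 (adjusted p = 0.73).

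The glutathione S-transferase *GST* ranged from 11.1 to 213.0 TPM in lateral roots (median 59.5) and from 0.86 to 49.3 TPM in elongation zones (median 21.1). In the long container pair it had 187.9, 205.1 and 213.0 TPM in lateral roots, against 20.9, 21.8 and 21.1 TPM in the elongation zone. It was above in lateral roots without overlap in all 4 long pairs. In the medium container pair the libraries overlapped. Lateral roots had 29.8, 150.9 and 151.3 TPM there, against 37.2, 22.8 and 16.6 TPM in the elongation zone. The fitted difference of *GST* in that pair was 1.97 on the log2 scale (edgeR adjusted p = 3.4e-04 over 42 libraries). In the medium rhizotron pair the parts were level, at 39.4, 41.2 and 42.1 TPM in lateral roots and 42.1, 40.1 and 37.5 TPM in the elongation zone. In the medium thick dying transplanted pair *GST* was lower in lateral roots, at 12.8, 11.1 and 11.5 TPM against 46.1, 49.3 and 49.1 TPM. The difference between long and medium pairs, over container and rhizotron, was 1.96 on the log2 scale (SE 0.41, edgeR adjusted p = 0.0017), and 2.25 after merging, where it did not pass (adjusted p = 1.0). Over the 7 pairs *GST* was higher in lateral roots by 1.70 (SE 0.36, adjusted p = 1.4e-04; 0.0078 merged), and with groups summed the adjusted p was 0.11. In the meristematic zone it had 47.0 to 615.2 TPM.

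The germin-like gene *GERL1*, of a family of apoplastic proteins, differed in 1 direction throughout. It had 7.64 to 251.7 TPM in lateral roots (median 37.0) and 192.0 to 1847 TPM in elongation zones (median 679.9). Lateral roots lay below the elongation zone without overlap in all 7 pairs. In the long rhizotron pair the values were 42.5, 45.8 and 41.5 TPM in lateral roots and 1078, 1806 and 1847 TPM in the elongation zone. In the long transplanted pair, where the difference was smallest, they were 251.7, 244.9 and 121.8 TPM in lateral roots and 1740, 505.2 and 1503 TPM in the elongation zone. The fitted difference was -4.28 on the log2 scale (SE 0.21, edgeR adjusted p = 4.3e-19; 4.7e-07 merged, 4.2e-04 summed), and within single pairs it was -5.42 to -2.72.

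The transcription factor gene *WRKY*, of a family known for its part in stress and defence responses, had 2.20 to 8.10 TPM in lateral roots (median 5.0) and 5.91 to 39.8 TPM in elongation zones (median 11.4). By TPM, lateral roots lay below without overlap in 5 pairs, and the libraries overlapped in the long transplanted and the long dying container pairs. By log2 CPM, lateral roots lay below without overlap in 6 pairs. In the long dying container pair the values were 6.91, 7.10 and 6.55 TPM in lateral roots and 7.63, 6.48 and 7.17 TPM in the elongation zone. Over the 7 pairs the fitted difference of *WRKY* was -1.49 on the log2 scale (SE 0.16, edgeR adjusted p = 5.5e-10; 5.7e-04 merged, 0.0098 summed).

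The ceramidase *CERD* differed little, with 92.1 to 129.7 TPM in lateral roots (median 100.3) and 94.2 to 149.4 TPM in elongation zones (median 111.0). Its fitted difference was -0.30 on the log2 scale (SE 0.034, edgeR adjusted p = 1.9e-09; 0.0022 merged, 0.011 summed). In the long rhizotron pair the direction rested on the scaling, since TPM was 109.8, 111.9 and 112.9 in lateral roots and 94.2, 109.7 and 108.0 in the elongation zone, whereas the fitted difference was -0.14 (adjusted p = 0.19). *PCC13*, a desiccation-related gene, went opposite ways. It had 22.7, 21.9 and 24.9 TPM in lateral roots and 98.5, 105.5 and 97.4 TPM in the elongation zone of the long container pair. In the medium thick dying transplanted pair the values were 51.4, 47.7 and 51.4 TPM in lateral roots and 9.47, 9.48 and 9.89 TPM in the elongation zone. Its difference over the 7 pairs was -0.21 (SE 0.26, edgeR adjusted p = 0.50; 0.63 merged, 0.77 summed), -0.58 without the thick dying pair (adjusted p = 0.020) and 0.11 without the long container pair (adjusted p = 0.75).

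The reference genes moved little. *UBQ* (ubiquitin) had 122.4 to 155.7 TPM in lateral roots (median 143.4) and 128.7 to 162.2 TPM in elongation zones (median 146.3), a fitted difference of -0.17 (SE 0.029, edgeR adjusted p = 5.8e-06; 0.027 merged, 0.071 summed). *EF* (elongation factor) had 1774 to 2864 TPM in lateral roots (median 2315) and 1324 to 2401 TPM in elongation zones (median 1820), a difference of 0.20 (SE 0.042, adjusted p = 1.3e-04; 0.048 merged, 0.14 summed). Over the alternatives *UBQ* ranged from -0.19 to -0.05 and *EF* from 0.15 to 0.32.

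**Figure D3:**
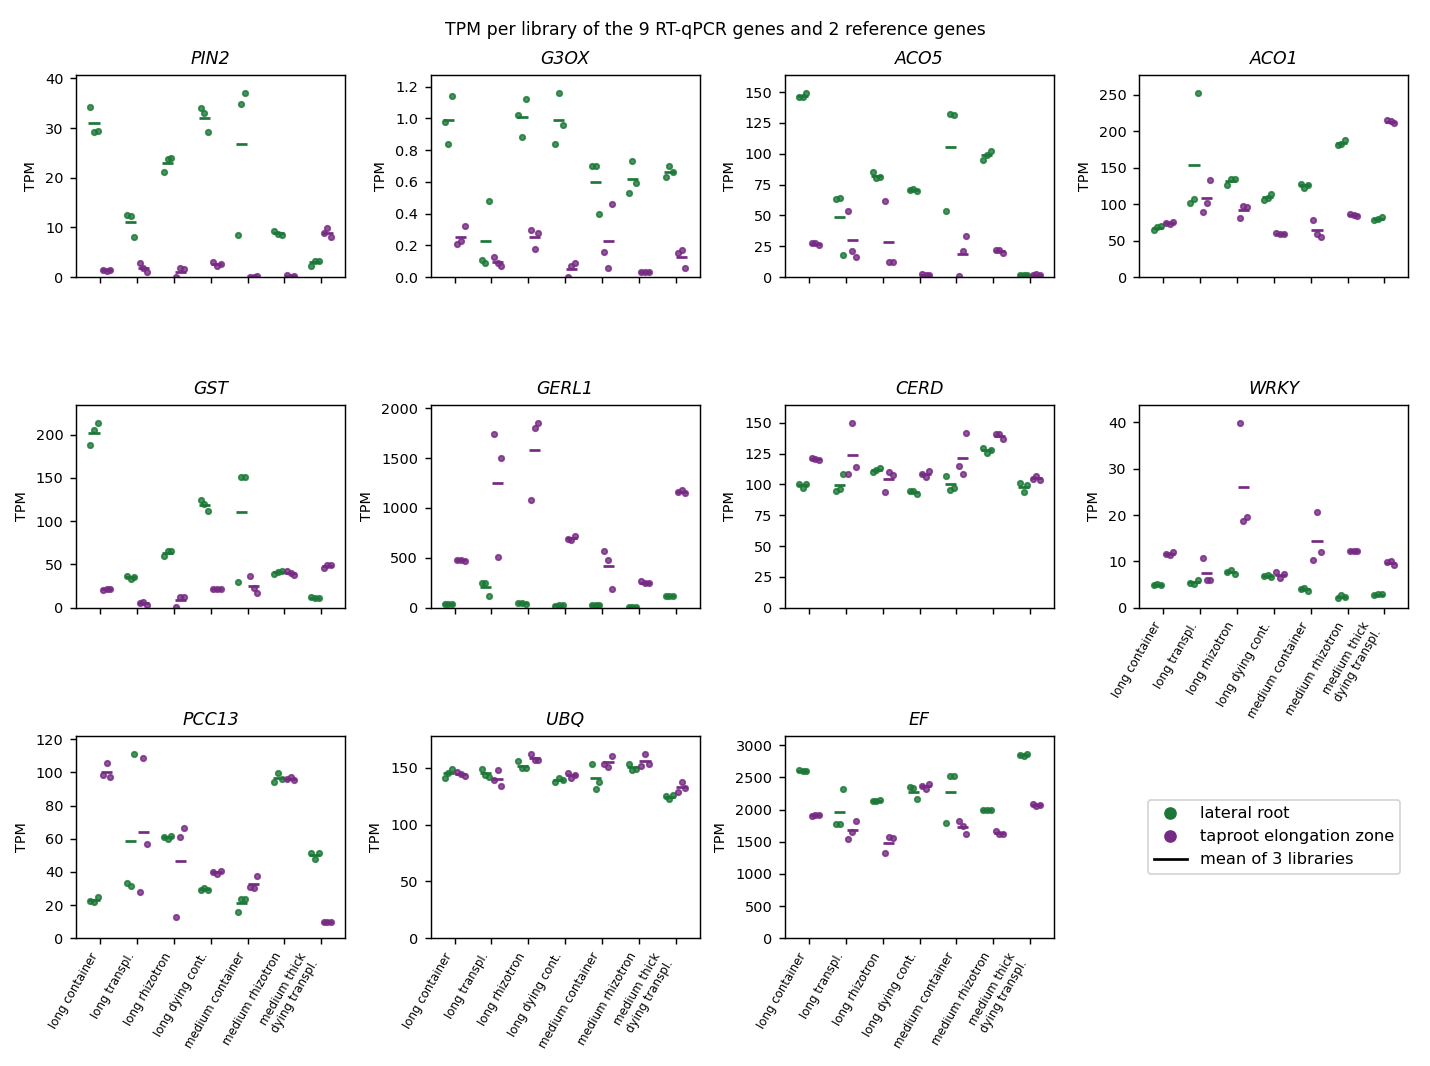
TPM (linear y axes from 0) of the 9 RT-qPCR genes and the 2 reference genes in each of the 42 libraries, by class on the x axis, with lateral roots in green left of elongation zones in purple; short lines are the means of 3 libraries. *GERL1* is low in lateral roots of every class, *PIN2* is high in lateral roots of 6 classes, and in the medium thick dying transplanted class *PIN2*, *GST* and *ACO1* are lower in lateral roots.

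The unnamed genes with the largest differences were taken from those with an average of at least 5 log2 CPM and the same direction in all 7 pairs. MSTRG.5293 had 85.8 to 242.6 TPM in lateral roots (median 176.7) and 0 to 11.5 TPM in elongation zones (median 0.53), a difference of 7.02 on the log2 scale (SE 0.42, edgeR adjusted p = 1.2e-16; 2.4e-06 merged, 0.0013 summed). In the meristematic zone it reached at most 0.60 TPM. MSTRG.31805 had 40.0 to 487.0 TPM in lateral roots (median 111.7) and 0 to 20.98 TPM in elongation zones (median 2.24), a difference of 5.65 (SE 0.47, adjusted p = 7.5e-13; 5.9e-05 merged, 0.0018 summed).

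On the other side, MSTRG.2656 had 0.04 to 13.6 TPM in lateral roots (median 0.39) and 2.41 to 354.8 TPM in elongation zones (median 121.8), a difference of -7.06 (SE 0.48, edgeR adjusted p = 4.2e-15; 6.3e-06 merged, 8.5e-04 summed). Its lateral root levels were 11.4, 13.6 and 12.0 TPM in the medium thick dying transplanted class and at most 3.68 TPM elsewhere. MSTRG.11318 had 0.91 to 4.85 TPM in lateral roots (median 2.46) and 9.93 to 720.3 TPM in elongation zones (median 230.6), a difference of -6.57 (SE 0.35, adjusted p = 3.6e-18; 2.0e-06 merged, 3.7e-04 summed). All 21 lateral root libraries of MSTRG.11318 lay below all 21 elongation zone libraries. Both genes were also expressed in the meristematic zone, with medians of 85.1 TPM for MSTRG.2656 and 44.5 TPM for MSTRG.11318. Neither identifier is paired with a name in the sources used here.

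Within single pairs, 8548 to 16180 genes differed between lateral roots and elongation zones over 42 libraries. The medium thick dying transplanted pair had the most, 16180 genes (59.1%), and the long container and medium container pairs the fewest, 8548 (31.2%) and 8639 (31.5%). The others had 10525 in the long rhizotron pair (38.4%), 11049 in the long dying container pair (40.3%), 11180 in the long transplanted pair (40.8%) and 11312 in the medium rhizotron pair (41.3%). Of the 27388 genes tested, 655 were higher and 742 lower in lateral roots in all 7 pairs. In contrast, 6588 genes were higher in at least 1 pair and lower in another. Of the 5385 genes that differed in a single pair, 2350 did so in the medium thick dying transplanted pair. These counts across pairs are over 42 libraries and were not made after merging. Merging left unequal numbers of units. The long transplanted and the medium container pair each kept 2 of lateral roots and 3 of elongation zones. The long container pair kept 2 and 1, the long rhizotron pair 1 and 2, and each other pair 1 and 1. The merged counts given next therefore do not rank the pairs. After merging, when most groups held a single unit, 1808 genes differed in the long transplanted (6.6%), 1678 in the medium container (6.13%) and 1583 in the medium thick dying transplanted pair (5.78%). The others had 342 in the long rhizotron (1.25%), 265 in the medium rhizotron (0.968%), 85 in the long dying container (0.31%) and 63 in the long container pair (0.23%).

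The order of genes by fold change was shared in part between pairs. Across the 27388 genes, which are not independent replicates, Spearman's rho between the fold changes of any 2 of the 7 pairs was 0.13 to 0.59 (median 0.43, 21 correlations). It was highest between the long and the medium container pair and lowest between the long dying container and the medium thick dying transplanted pair. No libraries are shared between pairs, but all were scaled together.

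**Figure D4:**
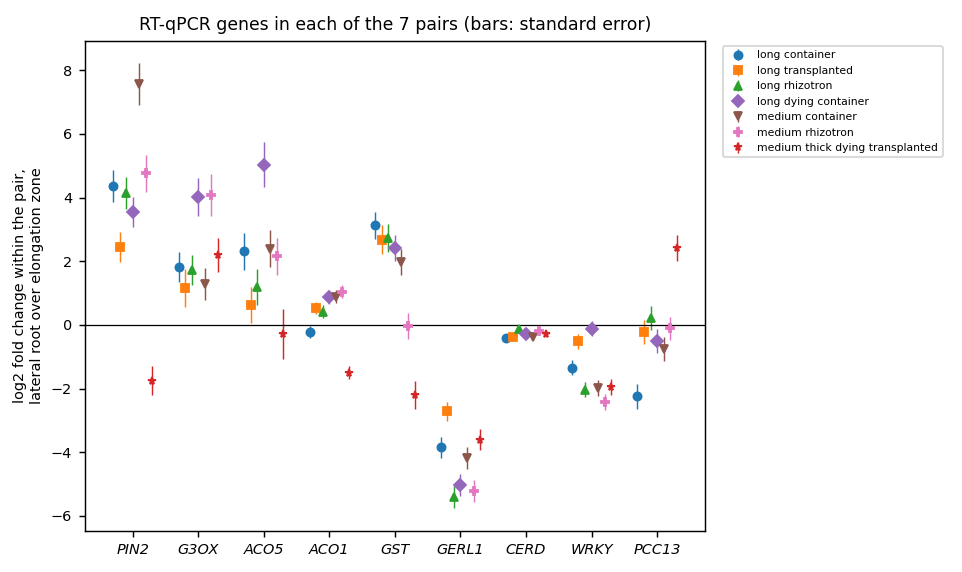
Fitted log2 fold change of lateral root over elongation zone (y axis) of the 9 RT-qPCR genes (x axis) in each of the 7 pairs, with bars for the standard error over 42 libraries. *GERL1* lies between -5.42 and -2.72 in all pairs, and the red stars of the medium thick dying transplanted pair lie below 0 for *PIN2*, *ACO1* and *GST* and above 0 for *PCC13*.

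Whether the difference between lateral roots and elongation zones varied among the pairs was tested directly. Over 42 libraries it varied for 20027 genes (73.1%), and after merging for 16 (0.0584%). The long dying container pair was set against the long container pair, which differs from it by vitality alone. The difference between root parts changed for 3756 genes (13.7%) over 42 libraries and for 1 gene after merging (0.00365%). Rhizotron pairs were set against container pairs for both lengths, with 4003 genes (14.6%) over 42 libraries. The long transplanted pair was set against the other 2 cultivations of long normal roots, with 6998 genes (25.6%). Long pairs were set against medium pairs in both cultivations, with 3328 genes (12.2%). After merging, edgeR found 0 genes for cultivation, transplanting and length, with 1140, 2304 and 904 genes at an unadjusted p under 0.05.

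The genes with the largest changes between pairs are given as values, since none of them passed after merging (edgeR adjusted p of 0.58 or more). The fitted changes were of like size there (6.98 for MSTRG.27589, -2.77 for MSTRG.6118, -5.09 for MSTRG.19105, 2.97 for MSTRG.7233, 4.95 for MSTRG.19976, -2.87 for MSTRG.31805, 2.67 for MSTRG.11318 and -2.97 for MSTRG.21956). With vitality, MSTRG.27589 had 273.2, 266.5 and 269.6 TPM in lateral roots and 1.16, 1.33 and 1.27 TPM in the elongation zone of the dying pair. In the normal pair it had 288.5, 288.5 and 287.1 TPM in lateral roots and 158.8, 164.1 and 165.4 TPM in the elongation zone, so that the pairs parted in the elongation zone. The change was 6.98 on the log2 scale (SE 1.20, edgeR adjusted p = 2.1e-04). In normal roots the elongation zone level of MSTRG.27589 was also low in the medium rhizotron class, at 9.01, 6.13 and 5.88 TPM. In the medium container class it was 0.47, 176.3 and 63.7 TPM, and in the long rhizotron and long transplanted classes 26.8 TPM or more. Between the dying and the normal pair, MSTRG.6118 also parted in the elongation zone. The dying pair had 52.0, 48.5 and 49.1 TPM in lateral roots and 698.0, 686.9 and 696.3 TPM in the elongation zone. In the normal pair MSTRG.6118 had 59.6, 60.8 and 63.8 TPM in lateral roots and 121.0, 121.5 and 127.7 TPM in the elongation zone, a change of -2.78 (SE 0.43, adjusted p = 5.4e-05).

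With cultivation, the lateral roots parted for MSTRG.19105. It had at most 1.69 TPM in lateral roots of both rhizotron classes, against 48.4 to 67.7 TPM in lateral roots of both container classes. In the elongation zone it had 0.58 to 35.5 TPM in rhizotrons and 24.8 to 60.3 TPM in containers, and the change was -5.28 (SE 0.71, edgeR adjusted p = 6.6e-06). The opposite case was MSTRG.7233, with a change of 2.70 (SE 0.59, adjusted p = 0.0021). Its elongation zone libraries from long rhizotron roots had 0.48, 93.1 and 95.5 TPM, the lowest in replicate 1, which stood apart from its group.

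With transplanting, MSTRG.19976 changed by 5.35 (SE 1.01, edgeR adjusted p = 2.7e-04), but its libraries of the long transplanted class lay far apart. They had 405.7, 398.9 and 5.29 TPM in lateral roots and 149.6, 7.97 and 23.8 TPM in the elongation zone. MSTRG.31805, named above, changed by -3.02 (SE 0.84, adjusted p = 0.0083), with 49.0, 54.6 and 171.3 TPM in lateral roots and 0.03, 7.32 and 20.98 TPM in the elongation zone of the long transplanted class, which also lay apart. With length, MSTRG.11318, also named above, changed by 2.55 (SE 0.63, adjusted p = 0.0077). Its elongation zone libraries had 9.93, 55.5 and 54.4 TPM in the long rhizotron class, the lowest again in replicate 1, against 230.6, 228.4 and 240.7 TPM in the medium rhizotron class. MSTRG.21956 changed by -2.81 (SE 0.23, adjusted p = 1.3e-09): in the long rhizotron pair it had 15.5, 14.2 and 15.2 TPM in lateral roots and 64.3, 37.3 and 35.6 TPM in the elongation zone, whereas in the medium rhizotron pair it had 106.3, 106.0 and 106.2 TPM in lateral roots and 16.4, 17.2 and 16.4 TPM in the elongation zone.

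The distance of lateral roots from both zones of the taproot was measured in each class as the root mean square difference of log2 CPM between group means. It was 1.20 ± 0.24 between lateral roots and elongation zones, 1.40 ± 0.29 between lateral roots and meristematic zones and 0.99 ± 0.15 between elongation and meristematic zones (SD, n = 7 classes). Lateral roots were nearer to the elongation zone than to the meristematic zone in 7 of 7 classes, and the first distance minus the second was -0.206 on average (exact permutation test with two-sided sign flips, p = 0.0156, the smallest that 7 classes allow, adjusted 0.0156). Lateral roots were also farther from the elongation zone than the zones of the taproot were from each other, by 0.204 on average and in 7 of 7 classes (exact permutation test, p = 0.0156, adjusted 0.0156). The second difference was 0.858 in the medium thick dying transplanted class and 0.015 in the long transplanted class. It lost its call without replicate 1 or 2 (0.199 and 0.167, exact permutation adjusted p = 0.0938 and 0.141), by 1 minus Spearman correlation (0.0134, adjusted p = 0.109) and on the 500 most abundant genes (0.144, adjusted p = 0.453). The nearness to the elongation zone also lost its call on the 500 genes (-0.215, exact permutation adjusted p = 0.0625, 6 of 7 classes).

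**Figure D5:**
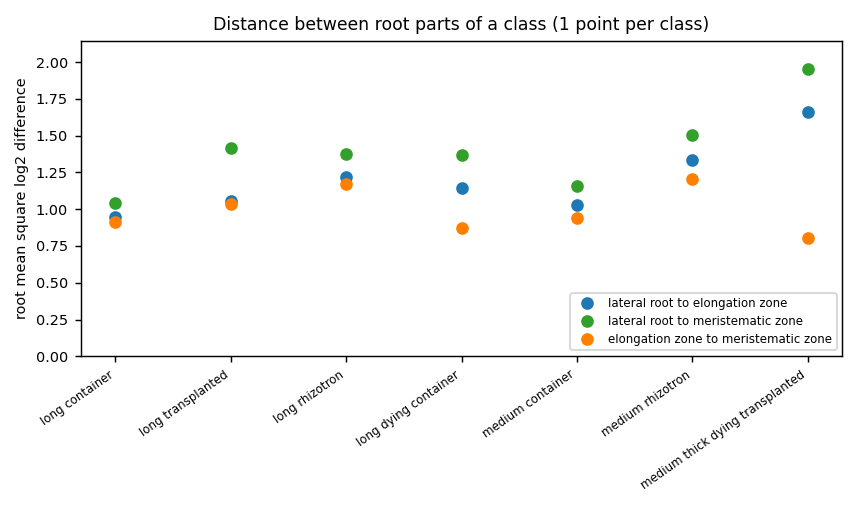
Root mean square log2 difference between group means (y axis from 0) for the 3 pairs of root parts in each of the 7 classes (x axis). Lateral root to elongation zone (blue) lies below lateral root to meristematic zone (green) in all classes, and the medium thick dying transplanted class has the widest spread, from 0.804 to 1.95.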

How the data were processed

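Libraries were grouped by the codes in the sample titles, and the members and the lists of genes were chosen with earlier results of these data known. The expected counts per gene that the authors deposited are not normalized. Per the study's methods, reads were trimmed with BBDUK, freed of rRNA reads with Bowtie 2 and mapped with STAR to the oak genome Qrob_PM1N, transcripts were assembled in each library and merged with StringTie, and RSEM estimated the counts from strand-aware Bowtie 2 alignments. The deposited TPM values come from the same estimates, scaled by the authors to gene length and library. A shift in the isoforms that RSEM assigns can move the counts of a gene without its TPM.

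Expected counts were rounded and tested in edgeR 4.0.16 (R 4.3.3) with TMM factors, the pair as covariate and filterByExpr (minimum count of 10), which kept 27388 of 35397 genes. Adjusted p is by Benjamini-Hochberg over all genes tested, with a threshold of 0.05. Standard errors are the log2 fold change over the root of the F statistic. Changes between pairs and values within pairs used 1 mean per group. The coefficient of variation beyond counting noise was computed over 5749 genes with a mean of 1000 to 10000 counts. Principal components and distances used log2 CPM with a prior count of 1. Distances and plots were made in Python 3.11.15 with scipy 1.17.1, matplotlib 3.10.9, pandas 2.3.3 and numpy 2.4.6.

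The genes named are the 11 of the primer table, the 2 largest rises and the 2 largest falls with an average of at least 5 log2 CPM and 1 direction in all 7 pairs, and the largest change each way in each of 4 contrasts between pairs. MSTRG.27196 was chosen after its values were seen. The fit was set against merged libraries, summed groups, a replicate block, fits without TMM factors or without the filter, a mean count of at least 50, a fold of at least 2, DESeq2 1.42.0, log2(TPM + 1) values in limma 3.58.1, all 30 groups of Dataset 2 in 1 fit, and the omission of each pair or replicate. The fits over the 7 pairs in edgeR, DESeq2 and limma and the edgeR fit of a change between pairs were tested on simulated libraries. Dataset 1 and the other groups of Dataset 2 were not used here beyond the meristematic zone libraries and the fit of all 30 groups.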

Additional observations from a re-analysis of the deposited data

Results flagged for a closer look

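The difference between lateral roots and elongation zones depended on the class of root in 4 direct tests over 42 libraries. It changed with vitality for 3756 genes, with cultivation for 4003, with transplanting for 6998 and with length for 3328 (edgeR, adjusted p under 0.05). After near-identical libraries were merged the counts were 1, 0, 0 and 0, with 449, 1140, 2304 and 904 genes at an unadjusted p under 0.05.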

How the results depend on the processing

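The count of 14841 genes that differed between lateral roots and elongation zones was 2664 against a null fold of 2, 8221 with near-identical libraries merged and 5700 with groups summed. It was 11422 to 17580 under DESeq2, limma, no TMM factors, no filter, a mean count of at least 50, all 30 groups in 1 fit and the omission of each pair. It was 11372 to 12610 when each replicate was left out. A setting added once values were known left out the 7 libraries that stand apart. It also left out the other lateral root libraries of the medium container pair, which had no elongation zone library left. The count was 14841 again, and 13414 of these genes were shared, all in the same direction. The omission of the 7 libraries alone was not fitted.

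Within pairs, the merged counts were 63 in the long container, 1808 in the long transplanted, 342 in the long rhizotron, 85 in the long dying container, 1678 in the medium container, 265 in the medium rhizotron and 1583 in the medium thick dying transplanted pair. With each replicate left out in turn they were 4048 to 8678, 5582 to 11217, 6847 to 9848, 6440 to 11068, 4458 to 10403, 6775 to 11382 and 12037 to 15950 in the same order. The genes whose difference varied among the pairs numbered 16 merged and 10151 to 18750 with a replicate left out. The changes with vitality, cultivation, transplanting and length numbered 1, 0, 0 and 0 merged in edgeR, with 449, 1140, 2304 and 904 genes at an unadjusted p under 0.05, and 290 to 4608, 1123 to 5304, 924 to 8131 and 834 to 2618 with a replicate left out, each lowest without replicate 2. The cause of these changes in count was not tested, and merging left unequal numbers of units in the pairs.

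The nearness of lateral roots to the elongation zone over the meristematic zone was -0.215 on the 500 most abundant genes (exact permutation adjusted p = 0.0625) and -0.223 to -0.187 with a replicate left out. Their distance to the elongation zone beyond that between the zones was 0.0134 by 1 minus Spearman correlation (adjusted p = 0.109), 0.144 on the 500 genes (adjusted p = 0.453) and 0.167 to 0.219 with a replicate left out, by the same exact test. *PCC13* was 0.11 without the long container pair.

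The replicate numbers were not taken to pair the samples, since the labels give them no shared origin and not every correlation was above 0.1. Same-numbered libraries of the root parts had correlations of -0.257 to 0.425 in their deviations from the group means, 6 of 21 above 0.1. Among the 3 of their class, 13 of 21 lateral root libraries correlated best with their own number. Deviations from a mean of 3 libraries depend on each other, so that these matches are at most a hint of pairing from the data alone. A replicate block gave 13205 genes over the 7 pairs, and 19317, 3855, 4139, 6854 and 3282 for variation among pairs, vitality, cultivation, transplanting and length, all within 1.5 times the counts without it. Low counts limit *G3OX*.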

Other observations

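The 1 gene whose difference between root parts changed with vitality after merging was MSTRG.27196 (3.77 on the log2 scale, edgeR adjusted p = 0.014). In the long dying container pair it had 246.2, 211.9 and 179.9 counts in lateral roots and 189.1, 185.8 and 175.2 counts in the elongation zone. In the long container pair it had 217.6, 160.5 and 210.9 counts in lateral roots and 2626, 2382 and 2628 counts in the elongation zone. The TPM values did not follow the counts. They averaged 77.6 ± 17.6 in lateral roots and 62.4 ± 9.66 in the elongation zone of the dying pair, and 67.7 ± 10.5 in lateral roots and 99.0 ± 3.79 in the elongation zone of the normal pair (SD, n = 3 each). Counts per TPM, a measure of the gene length that was assigned, thus varied by 3.47 on the log2 scale between its libraries.

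Such shifts were rare among the genes that could be checked. Of 17677 genes with at least 10 counts and 0.5 TPM in all 42 libraries, 331 (1.87%) varied in counts per TPM by more than 1 on the log2 scale and 51 by more than 2. The mean differed between lateral roots and elongation zones by more than 0.5 for 15 genes. For the 9 named and reference genes that could be checked, it differed by at most 0.074. Genes under 10 counts or 0.5 TPM in any of the 42 libraries were not checked.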
